A study of Mus musculus with 8 samples.

Results

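The transcripts examined here encode the interleukin-6 (IL-6) family and its signalling chain to STAT3: the ligands Il6 and Lif, the receptor chains Il6ra, Il6st, Lifr and Osmr, the kinases Jak1 and Jak2, the transcription factor Stat3 and the feedback inhibitor Socs3. They were taken by gene symbol from a table of 18877 genes measured by RNA-seq in activated muscle stem cells (ASCs). All 10 genes were in the table, and all 10 had a mean of at least 10 normalized read counts over the 8 libraries, as did 11754 genes in all. Of the 10 genes, Osmr, Jak1 and Stat3 were higher in mfn2-/- ASCs, and 7 did not pass the test in either direction.

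Most cytokines of the IL-6 family assemble receptor complexes with gp130, the shared chain encoded by Il6st, in some cases together with LIFR or OSMR. The joined receptors activate JAK kinases, which phosphorylate STAT3, and STAT3 then enters the nucleus and switches on target genes that include its own inhibitor SOCS3. In injured muscle this pathway is known for its part in the proliferation and differentiation of muscle stem cells. Activation of STAT3 is a change of the protein, so transcript levels do not measure it.

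ASCs are the resident stem cells of skeletal muscle after they have left quiescence. The wild-type and the mfn2-/- group had 4 libraries each, all from adult mice that carried Pax7-CreERT2, a tamoxifen-inducible Cre made in Pax7-expressing cells, together with a Cre-dependent mito-Dendra2 reporter of mitochondria. In the mfn2-/- group the same Cre also deleted a floxed Mfn2, which encodes the outer membrane fusion protein mitofusin 2, so the deletion was limited to Pax7 cells and their progeny. All mice received tamoxifen and then BaCl2 into the tibialis anterior muscle, and CD34-, Dendra2+, DAPI- cells were sorted 2 days after the injury. The labels do not say whether a library held cells from 1 animal or several, nor the exact age or strain, so p-values measure the spread between these libraries, which may be partly technical. The question for the 10 genes was how their transcripts differ when Mfn2 is deleted.

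Values are normalized read counts, the reads of a gene divided by a size factor of its library. Changes are differences of the mean log2(normalized read count + 1), mfn2-/- minus wild-type, and understate the change of weakly expressed genes. They were tested with limma over all 11754 genes, and a gene was called at an adjusted p under 0.05. The exact permutation test is two-sided over the 70 arrangements of 4 against 4 libraries and cannot give a p below 0.0286.

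The libraries held 1880464 to 7508215 reads assigned to genes, with no difference in depth detected between the groups (exact permutation p = 0.943). The targeted gene Mfn2 measured 202 to 245 normalized read counts in wild-type and 104 to 172 in mfn2-/- libraries, a change of -0.88 (SE 0.30) with no overlap between the groups (exact permutation p = 0.0286, limma adjusted p 0.0848). Reads from 4 Y-linked genes numbered 807 to 2336 in wild-type replicates 3 and 4 and in mfn2-/- replicates 1 and 2, and 0 in the other 4 libraries, so each genotype held 2 libraries of each kind. In mfn2-/- replicate 4 only 9646 genes had a read, against 12613 to 15270 in the others. The sorted cells expressed Pax7 in every library, at 582 to 803 normalized read counts. The summed level of 12 myogenic markers was 13505 to 17057 in wild-type and 31456 to 43791 in mfn2-/- libraries. Most of that difference came from Sdc4 (mean 4271 and 17473) and Des (2156 and 7969), singled out after their values were seen, and the median log2 change of the 12 markers was 0.21. Markers of other cells moved with genotype as well: the sum of 13 fibroadipogenic markers was 200987 to 258186 in wild-type and 5303 to 9847 in mfn2-/- libraries, and that of 8 tenocyte markers 36938 to 58437 and 306 to 407. Their part in the differences below was not tested, and in bulk RNA fewer cells of a type and less RNA per cell cannot be told apart.

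The ligands were examined first. Il6 (GENCODE M21 annotation of GRCm38, the source of all gene coordinates here, chr5:30013114-30019981, plus strand) encodes IL-6 itself, which injured muscle is known to release. It measured 95.5, 218, 122 and 145 normalized read counts in wild-type replicates 1 to 4 and 94.7, 227, 113 and 1.83 in mfn2-/- replicates 1 to 4. Apart from mfn2-/- replicate 4 the groups covered the same range, and that library lay far below the other 7. Its value was 1 read, with an exact Poisson 95% interval of 0.0253 to 5.57 reads, or 0.0464 to 10.2 normalized read counts, which covers counting error only. The means were 145 ± 52.4 (SD, n = 4) and 109 ± 92.3, and the log2 change of -1.44 (SE 1.06, 95% interval -3.72 to 0.85) did not pass the limma test (adjusted p 0.437). Without mfn2-/- replicate 4 the change was -0.04 (limma adjusted p 0.961), so the fitted decrease rested on 1 library.

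Lif (chr11:4257557-4272514, plus strand) encodes leukemia inhibitory factor, which signals through LIFR and gp130 and acts on myoblast growth. The wild-type libraries held 291, 148, 19.6 and 104 normalized read counts and the mfn2-/- libraries 167, 95.6, 201 and 409. Values were scattered and overlapping in both groups, with the lowest in wild-type replicate 3 and the highest in mfn2-/- replicate 4. Lif changed by 0.96 on the log2 scale (SE 0.69, 95% interval -0.54 to 2.46), which did not pass the limma test (adjusted p 0.429). Without wild-type replicate 3 its change was 0.21.

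The receptor chains came next. Osmr (chr15:6813577-6874969, minus strand) encodes the chain that pairs with gp130 to bind oncostatin M. It measured 1089, 1157, 305 and 364 normalized read counts in wild-type replicates 1 to 4 and 2562, 2715, 2593 and 2113 in mfn2-/- replicates 1 to 4. Every mfn2-/- library lay above every wild-type library, and the wild-type values fell into a higher pair, replicates 1 and 2, and a lower pair, replicates 3 and 4. The mean was 3.42-fold higher in mfn2-/- ASCs, at 2496 ± 264 against 729 ± 457, and the log2 change of 2.02 (SE 0.38, 95% interval 1.20 to 2.84) was the widest move among the 10 genes in this fit (limma adjusted p 0.0046, exact permutation p = 0.0286). It remained at 1.69 to 2.33 with any single library left out. Without the intensity trend in limma's variance the adjusted p was 0.0626.

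Il6st (chr13:112464070-112510086, plus strand) encodes gp130, the signalling chain that most receptor complexes of the family share. It was abundant in all libraries, at 3609, 3400, 2934 and 2931 normalized read counts in wild-type and 3943, 4092, 3514 and 3218 in mfn2-/- ASCs. The upper wild-type values lay among the mfn2-/- values, so the groups overlapped. The log2 change was 0.20 (SE 0.17, 95% interval -0.17 to 0.57, limma adjusted p 0.512), and an increase of more than 0.57 lay outside that interval.

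Lifr (chr15:7090614-7197489, plus strand) encodes the chain that binds LIF. In wild-type ASCs it held a narrow range, 1390, 1334, 1325 and 1513 normalized read counts, and in mfn2-/- ASCs it was spread over 1404, 1164, 847 and 679.9. Lifr in mfn2-/- replicate 1 lay inside the wild-type range, and the other 3 mfn2-/- libraries lay below it. Its change of -0.50 (SE 0.22, 95% interval -0.98 to -0.01) had an unadjusted p of 0.0453 in limma and an adjusted p of 0.19.

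Il6ra (chr3:89864059-89913196, minus strand) encodes the IL-6-binding chain, which can also be shed and act in trans. Its level was low, at 47.8, 152, 48.2 and 33.7 normalized read counts in wild-type and 70.7, 109.8, 145 and 187 in mfn2-/- libraries. Except for wild-type replicate 2, the wild-type values lay below all mfn2-/- values. The change of 1.02 (SE 0.56, 95% interval -0.18 to 2.23) did not pass the limma test (adjusted p 0.283). Its exons overlap those of Gm42809 on the opposite strand, a gene not among the 18877, so reads of the overlap may come from either gene.

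**Figure D1:**
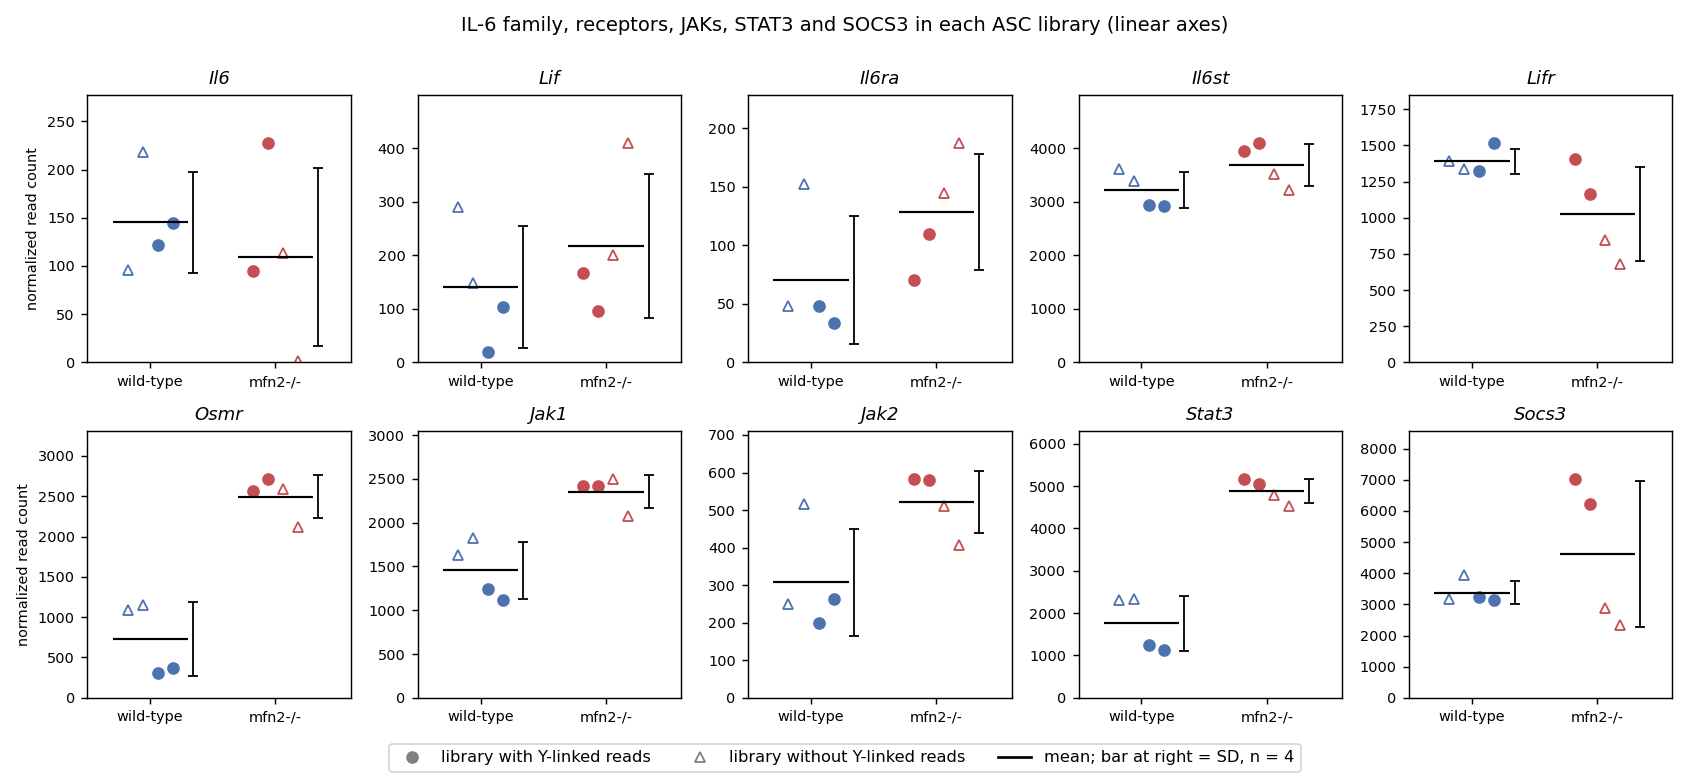
Normalized read counts (vertical axes, linear, from 0) of the 10 genes in each library, with wild-type at left and mfn2-/- at right of each panel. Filled circles are libraries with Y-linked reads, open triangles those without, horizontal lines group means and bars the SD of 4 libraries. Osmr, Jak1 and Stat3 separate fully by genotype, and Socs3 is high only in mfn2-/- replicates 1 and 2.

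JAK1 and JAK2 are the tyrosine kinases bound to these receptor chains. Jak1 (chr4:101152367-101265282, minus strand) gave 1628, 1826, 1244 and 1117 normalized read counts in wild-type and 2415, 2418, 2499 and 2080 in mfn2-/- libraries. The groups did not overlap, and the mfn2-/- values were closer together than the wild-type values. Jak1 was 1.62-fold higher, at 2353 ± 186 against 1454 ± 330.2, with a log2 change of 0.72 (SE 0.19, 95% interval 0.30 to 1.13, limma adjusted p 0.0318). This call was the least stable of the 3: it was lost without wild-type replicate 3 (adjusted p 0.102) or 4 (0.103), without mfn2-/- replicate 1 (0.0729), 2 (0.0771) or 3 (0.0802), and without the intensity trend (0.171). The exons of Jak1 overlap those of Raver2 on the opposite strand, and the strand setting of the read counting is not given in the sources used here, so reads of the overlap may come from either gene.

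Jak2 (chr19:29251828-29313080, plus strand) measured 250.2, 517, 200.1 and 264 normalized read counts in wild-type and 583, 581, 512 and 407 in mfn2-/- libraries. Only wild-type replicate 2 reached the mfn2-/- range. The mean was 1.69-fold higher and the log2 change 0.84 (SE 0.29, 95% interval 0.21 to 1.47), with a limma adjusted p of 0.0901. Without wild-type replicate 2 Jak2 passed, with a change of 1.12 (limma adjusted p 0.017).

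Stat3 (chr11:100885098-100939540, minus strand) encodes the transcription factor at the end of the chain. It measured 2320, 2328, 1254 and 1123 normalized read counts in wild-type replicates 1 to 4 and 5169, 5056, 4794 and 4528 in mfn2-/- replicates 1 to 4. All mfn2-/- libraries lay far above all wild-type libraries, and the wild-type values split into the same higher and lower pairs as those of Osmr. The mean was 2.78-fold higher, at 4887 ± 286 against 1756 ± 658, and the log2 change was 1.55 (SE 0.25, 95% interval 1.03 to 2.08, limma adjusted p 0.00133, exact permutation p = 0.0286). Stat3 passed under every alternative that gave a test, with adjusted p from 1.1e-07 to 0.0388, and its change ran from 1.37 to 1.72 with single libraries left out. Its exons overlap those of Stat5a on the opposite strand, and Stat5a itself measured 114 ± 9.95 in wild-type and 86.7 ± 47.8 in mfn2-/- ASCs.

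Socs3 (chr11:117966079-117970047, minus strand) encodes the inhibitor that binds gp130 and JAKs and shuts the pathway off. It gave 3179, 3934, 3250 and 3153 normalized read counts in wild-type and 7029, 6215, 2890 and 2329 in mfn2-/- libraries. Mfn2-/- replicates 1 and 2 lay above, and replicates 3 and 4 below, every wild-type library. The means of 3379 ± 372 and 4616 ± 2351 therefore describe no single mfn2-/- library, and the change over all libraries was 0.30 (SE 0.31, 95% interval -0.38 to 0.97, limma adjusted p 0.596).

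The promoters of Stat3 and Socs3 are shown because the 2 genes are the end of the chain and its classical target and yet differed in how they moved. The sequences are the 250 bases before the RefSeq start (GRCm38.p6, minus strand), at chr11:117969367-117969616 for Socs3 and chr11:100939541-100939790 for Stat3, printed 5′ to 3′. Capitals mark the palindromic STAT motif TTCNNNGAA, searched on both strands.
Socs3: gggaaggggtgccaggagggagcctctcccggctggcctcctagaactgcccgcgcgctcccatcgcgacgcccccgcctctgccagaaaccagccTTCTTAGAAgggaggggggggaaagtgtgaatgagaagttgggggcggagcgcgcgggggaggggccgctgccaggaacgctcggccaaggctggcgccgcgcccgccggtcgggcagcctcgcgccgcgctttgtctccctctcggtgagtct
Stat3: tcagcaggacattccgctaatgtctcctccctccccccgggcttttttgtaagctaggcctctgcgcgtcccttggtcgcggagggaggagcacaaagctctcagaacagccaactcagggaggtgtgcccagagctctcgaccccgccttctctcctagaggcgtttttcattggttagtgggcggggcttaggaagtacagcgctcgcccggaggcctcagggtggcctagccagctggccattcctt
The Socs3 window held 1 match, 154 to 146 bases before the start, and the Stat3 window none. Near its 3′ end the Socs3 window also overlaps an exon of a noncoding Socs3 transcript in GENCODE M21. The table gave 11 promoters for the 10 genes, and 1 of them (9.09%) held the motif, against 2306 of 32851 promoters of the same length (7.02%), so its presence among these genes was near that of promoters in general. A match is a run of letters, not a shown binding site.

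By these tests 3 of the 10 genes were higher and 0 lower in mfn2-/- ASCs, where 3.99% of all tested genes were called higher, 6.36% lower and 10.4% in either direction. The 10 genes were chosen with earlier results of these data known. Counts of them here and below are therefore no test of the 10 as a set. The groups did not overlap for the same 3 genes, with mfn2-/- the higher in each, against 19.5% of all tested genes in either direction and 7.36% in that one. At an unadjusted p under 0.05 in limma, Lifr was the only 1 of the 10 genes on the lower side. The median log2 change of the 10 genes was 0.78 with 8 above 0, and that of all tested genes was -0.16 with 5191 of 11754 above 0. Neither ligand was called, and of the receptor chains only Osmr was.

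**Figure D2:**
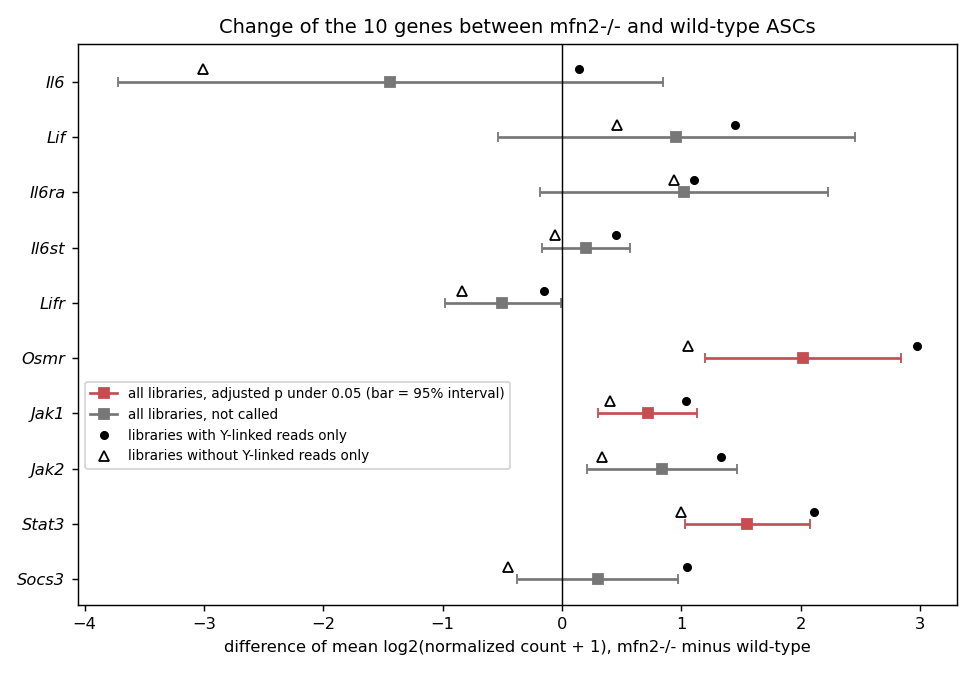
Difference of the mean log2(normalized read count + 1), mfn2-/- minus wild-type (horizontal axis), for each of the 10 genes. Squares with bars are the limma change over 8 libraries and its 95% interval (red where the adjusted p is under 0.05), filled circles the change among libraries with Y-linked reads and open triangles that among libraries without. Osmr, Jak1 and Stat3 lie above 0 in both kinds of library, and Socs3 lies on opposite sides of 0.

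Levels were set against each other per kilobase of exon. In wild-type ASCs Socs3 came first, at 1169 ± 129 normalized read counts per kilobase, followed by Il6st (290.0 ± 30.7), Jak1 (201 ± 45.7), Stat3 (184 ± 69) and Lifr (129 ± 8.05). Of these neighbours, Jak1 overlapped Stat3 and Stat3 overlapped Lifr. Jak2, Osmr and Il6 were alike at 61.2 ± 28.3, 60.2 ± 37.7 and 59.8 ± 21.6 per kilobase, and Lif (32.3 ± 26.1) and Il6ra (8.16 ± 6.37) came last, each overlapping its neighbours. In mfn2-/- ASCs Socs3 remained first at 1597 ± 813 per kilobase, Stat3 came next at 513 ± 30 without overlap with its neighbours, and Osmr stood at 206 ± 21.8, after Il6st (333 ± 36) and Jak1 (326 ± 25.8). Lifr stood at 95 ± 30 per kilobase and overlapped both Jak2 (103 ± 16.4) and Lif (50.1 ± 30.9). Il6ra was again last in these libraries, at 14.8 ± 5.74 per kilobase.

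The genotype difference was also taken separately in libraries with and without Y-linked reads. Among libraries with Y-linked reads, Osmr rose from a wild-type mean of 334 to an mfn2-/- mean of 2639 normalized read counts, and among those without from 1123 to 2353, log2 changes of 2.98 and 1.06. The difference of these changes was 1.92 (95% interval 1.37 to 2.47, limma interaction adjusted p 0.00452), a test added after the data had been seen. For Osmr the mfn2-/- libraries of both kinds were close together, and it was the wild-type level that differed.

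Stat3 showed the same arrangement of values. Its wild-type mean was 1189 normalized read counts in libraries with Y-linked reads and 2324 in those without, and its mfn2-/- means were 5113 and 4661. The log2 changes were 2.11 and 1.00, and their difference was 1.10 (95% interval 0.71 to 1.50, limma interaction adjusted p 0.0148).

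Socs3 differed the other way around, in the mfn2-/- libraries. Its mfn2-/- mean was 6622 normalized read counts in libraries with Y-linked reads and 2610 in those without, against wild-type means of 3202 and 3557. The log2 change was 1.05 among the former and -0.45 among the latter, a difference of 1.49 (95% interval 1.01 to 1.98, limma interaction adjusted p 0.0085). The interaction passed for these 3 of the 10 genes, against 1.47% of all tested genes, and edgeR on the recovered reads also called all 3 (adjusted p 0.00746 for Osmr, 0.0269 for Stat3 and 0.0181 for Socs3). Without the intensity trend limma called 0 genes of the whole table for this interaction (adjusted p 0.267, 0.453 and 0.391 for the 3 genes).

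Each cell of that comparison held 2 libraries. Inside a genotype the split is also that between replicates 1 and 2 and replicates 3 and 4. Over both genotypes the interaction is the same contrast as replicates 1 and 2 against replicates 3 and 4. The interaction therefore cannot tell a genotype change that differs by library kind from a shift between those replicates. The means of replicates 1 and 2 and of replicates 3 and 4 were 1123 and 334 for Osmr in wild-type and 2639 and 2353 in mfn2-/- libraries. For Stat3 they were 2324 and 1189, and 5113 and 4661. For Socs3 they were 3557 and 3202, and 6622 and 2610. Whether the shift was alike in both genotypes was not tested. The summed level of 15 immediate early and heat shock genes, which are known to rise during tissue dissociation, split between the kinds of library in both genotypes. It was 114126 to 156609 normalized read counts in wild-type and 110683 to 230152 in mfn2-/- libraries, with no difference detected between genotypes (exact permutation p = 0.40). Mfn2-/- replicates 1 and 2 were the highest, as for Socs3, and wild-type replicates 1 and 2 (150266 and 156609) lay above wild-type replicates 3 and 4 (121539 and 114126), as for Osmr and Stat3. Its log2 change was 0.90 among libraries with Y-linked reads and -0.42 among those without, and 12 of the 15 genes had an interaction adjusted p under 0.05 in limma, against 1.47% of all tested genes and 0 genes without the intensity trend. This list too was chosen with earlier results of these data known, so the count is no test of it as a set. The part of these genes' change in that of Socs3, Osmr or Stat3 was not tested.

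**Figure D3:**
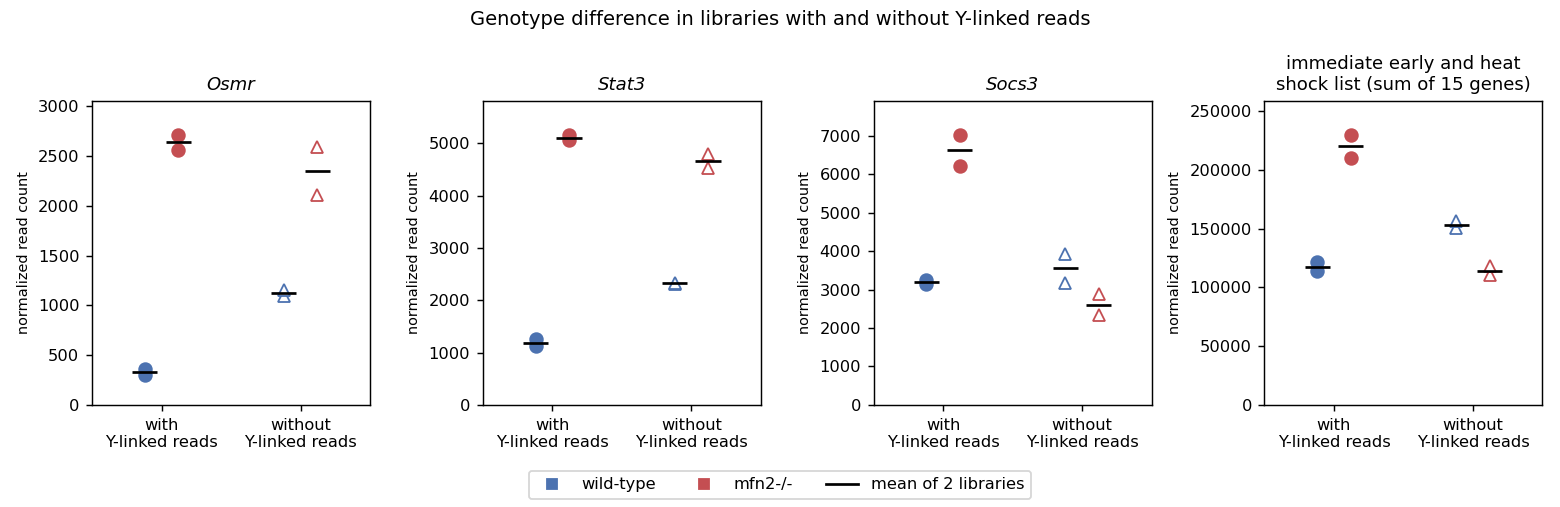
Normalized read counts (vertical axes, linear, from 0) of Osmr, Stat3, Socs3 and the sum of 15 immediate early and heat shock genes, for libraries with and without Y-linked reads. Points are libraries, blue for wild-type and red for mfn2-/-, and lines are means of 2 libraries. For Osmr and Stat3 the wild-type level differs between the kinds of library, for Socs3 the mfn2-/- level does, and for the summed list both do.

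For Jak1 the log2 change was 1.04 among libraries with Y-linked reads and 0.40 among those without, for Jak2 1.33 and 0.34, and for Il6st 0.45 and -0.06. In the same order it was -0.15 and -0.84 for Lifr and 1.11 and 0.94 for Il6ra. The interaction was not called for any of these 5 genes (limma adjusted p from 0.248 for Il6st to 0.958 for Il6ra). Over the 10 genes the median log2 change was 1.08 with Y-linked reads and 0.37 without.

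The pattern of each gene over the 8 libraries was compared with that of all tested genes by the root mean square difference of centred log2 values. Nearest to Socs3 were Fndc4 (0.12), Pfkfb3 (0.16), an enzyme that drives glycolysis, and Malat1 (0.16), a nuclear noncoding RNA, where the median gene lay at 1.06. Pfkfb3, for example, measured 844, 931, 855 and 755 normalized read counts in wild-type and 2246, 1819, 840.1 and 740.3 in mfn2-/- libraries, high in mfn2-/- replicates 1 and 2 alone. Nearest to Il6 were Wdr85, Zfp667 and Arhgap12 (each 0.34, with a median of 2.00 over all genes), of which Wdr85 and Zfp667 had 0 and Arhgap12 had 5.5 normalized read counts in mfn2-/- replicate 4.

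The other genes of the pathway were taken from 5 lists of 38 genes, of which 37 were in the table and 27 passed the filter on low values. Of these 27 genes, 4 were higher, 2 lower and 21 not called, where 3.99% of all tested genes were called higher and 6.36% lower, so the lower count was near that of the whole table. The median log2 change was 0.13, with 15 above 0. These lists were also chosen with earlier results of these data known, so their counts are no test of them as sets. Among the other ligands Il11, Osm, Ctf1, Cntf and Il27 lay under the filter, Osm with 0 reads in every wild-type library and in 3 of 4 mfn2-/- libraries, so transcript of the ligand of OSMR was hardly detected at this depth while that of its receptor chain was higher. Of the 2 ligands tested 0 were called. Clcf1, a partner ligand of the ciliary neurotrophic factor receptor, measured 23.8 ± 25.8 and 139.6 ± 103 normalized read counts (log2 change 3.49, limma adjusted p 0.0796).

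Of the 2 other receptor chains tested, Il11ra1, which binds IL-11, was lower in mfn2-/- ASCs. It measured 177, 331, 334 and 357 normalized read counts in wild-type and 127, 149, 126 and 132 in mfn2-/- libraries, without overlap. Its change of -1.12 on the log2 scale (SE 0.31) had a limma adjusted p of 0.0345. Il11ra1 has near-identical copies in the mouse genome among which reads could be split, so its value is uncertain, and its call was lost under 10 of the 22 alternatives that gave a test.

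Among 6 other JAK and STAT genes, Stat2, which acts in type I interferon signalling, was higher and 5 were not called. It measured 191, 132, 131 and 197 normalized read counts in wild-type and 537, 392, 329 and 405 in mfn2-/- libraries, without overlap. The log2 change of Stat2 was 1.35 (SE 0.27, limma adjusted p 0.00692), and it was alike in libraries with (1.51) and without (1.20) Y-linked reads. Stat5b measured 475 ± 111 in wild-type and 475 ± 65.5 in mfn2-/- ASCs. Stat6 was not called but was lower without overlap, at 391 ± 42.5 and 259 ± 63.1 (-0.62, limma adjusted p 0.144). Of the 6 genes 3 had a change above 0.

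Of 15 other inhibitors tested 3 were higher and 1 lower. Ptpn2, a phosphatase that dephosphorylates JAK1 and STATs, measured 216, 285, 118 and 158 normalized read counts in wild-type and 531, 559, 392 and 531 in mfn2-/- libraries (log2 change 1.43, SE 0.29, limma adjusted p 0.00781). Pias2, of the family of inhibitors of activated STATs, measured 266 ± 65 and 518 ± 80.1 (0.97, limma adjusted p 0.0211). In both genes the groups did not overlap, and the call was lost under 4 of 22 alternatives for Pias2 and 1 of 22 for Ptpn2. Cish, a SOCS family member best known as a target of STAT5, measured 134, 129, 134 and 101 in wild-type and 471, 374, 133 and 566 in mfn2-/- libraries (1.45, limma adjusted p 0.0389), with mfn2-/- replicate 3 inside the wild-type range and a call that was lost under 12 of these 22 alternatives.

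The lower inhibitor was Ptprt, a receptor phosphatase of STAT3, at 21.9 ± 6.58 normalized read counts in wild-type and 0 in 3 of 4 mfn2-/- libraries. Its limma adjusted p was 0.0368 and was not kept under 13 of 19 alternatives. Its fitted change ran from -6.47 to -1.55 over the alternatives. The sheddases Adam10 and Adam17, which release the soluble IL-6 receptor, both changed by -0.09 and were not called. Of the SOCS genes, Socs2 measured 135 ± 33.2 and 252 ± 34.2 without overlap (0.92, limma adjusted p 0.0732).

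**Figure D4:**
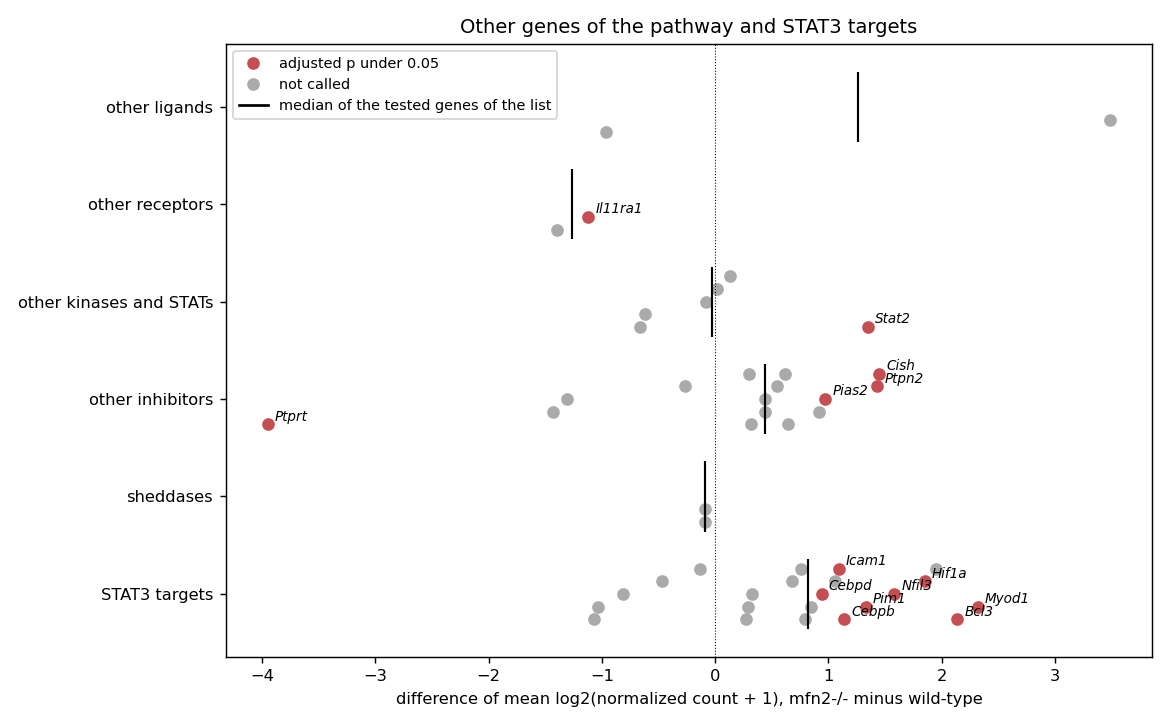
Difference of the mean log2(normalized read count + 1), mfn2-/- minus wild-type (horizontal axis), of the tested genes in each pathway list and in the STAT3 target list (rows). Each point is 1 gene, red and named where its limma adjusted p is under 0.05, and vertical lines are list medians. The STAT3 targets, a list chosen with earlier results of these data known, have a median of 0.82 and 8 named genes, all above 0.

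A list of 25 genes known as targets of STAT3 in various cell types was counted in the same fit, 3 of which (Fos, Junb and Zfp36) are also in the immediate early list. The list was chosen with earlier results of these data known, so its counts are no test of STAT3 targets as a set. Of 22 genes tested, 8 were higher, 0 lower and 14 not called in limma, where 3.99% of all tested genes were called higher and 6.36% lower. The groups did not overlap for 10 of them, against 19.5% of all tested genes. The median log2 change was 0.82 with 17 above 0, beside -0.16 over all tested genes. DESeq2 called 1 of them lower.

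Hif1a encodes the factor that responds to low oxygen. It had the lowest adjusted p of these targets, at 1089, 739, 784 and 634 normalized read counts in wild-type and 2875, 3366, 2987 and 2320 in mfn2-/- libraries (log2 change 1.85, SE 0.20, limma adjusted p 7.97e-05). Myod1, the myogenic transcription factor, measured 212, 104, 225 and 147 in wild-type and 910.1, 683, 918 and 801 in mfn2-/- libraries (2.32, SE 0.27, limma adjusted p 0.000146). Neither gene overlapped between the groups, and both passed under every alternative that gave a test.

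Cebpb and Cebpd, leucine zipper factors of the acute phase response, measured 1139 ± 282 and 1404 ± 364 normalized read counts in wild-type and 2465 ± 225 and 2764 ± 992 in mfn2-/- ASCs. Cebpb changed by 1.14 (limma adjusted p 0.00267) and Cebpd by 0.94 (adjusted p 0.0399), and the call of Cebpd was lost under 8 of 22 alternatives. Icam1, an adhesion molecule, rose by 1.09 (714 ± 170.1 to 1518 ± 373, limma adjusted p 0.00881). Pim1, a serine/threonine kinase, rose by 1.33 (305 ± 185 to 659.8 ± 90.9, limma adjusted p 0.0449), a call lost under 10 of 22 alternatives. The remaining called targets were Nfil3 (195 ± 43.8 to 582 ± 134, limma adjusted p 0.00199) and Bcl3 (84.3 ± 16.1 to 373 ± 51.9, adjusted p 0.000577), a transcriptional repressor and a nuclear cofactor of NF-kB.

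The most abundant targets that did not pass were Fos, Junb and Mcl1. Fos, an immediate early gene, measured 22224, 21227, 19131 and 16316 normalized read counts in wild-type and 16125, 14879, 8241 and 7988 in mfn2-/- libraries. Every mfn2-/- value of Fos lay below every wild-type value, yet the change of -0.81 had a limma adjusted p of 0.0813. Junb (0.33, limma adjusted p 0.464) and Mcl1 (0.68, adjusted p 0.176), which encodes an inhibitor of apoptosis, overlapped between the groups.

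The target list split by library kind as well. As above, the same contrast is replicates 1 and 2 against replicates 3 and 4 over both genotypes, and the readings cannot be told apart. Among libraries with Y-linked reads 19 of 22 targets lay above 0, with a median log2 change of 1.46, and among those without 13 did, with a median of 0.27. The interaction was called for 9 of the 22 targets in limma, against 1.47% of all tested genes, and for 0 genes without the intensity trend. Cebpd changed by 1.72 and 0.17 and Mcl1 by 1.51 and -0.16 in the 2 kinds (limma interaction adjusted p 0.00452 for each), whereas Bcl3 changed by 2.18 and 2.11 and Myod1 by 2.11 and 2.52. The promoter motif was present in 3 of 28 promoters found for 21 of the targets (10.7%), those of Icam1, Irf1 and Zfp36, which is near the 7.02% of all promoters.

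Transcripts of blood cells, which are known sources of IL-6 and oncostatin M, were scarce in the sorted cells. The sum of 12 macrophage markers was 59.8 to 159 normalized read counts in wild-type and 124 to 205 in mfn2-/- libraries (exact permutation p = 0.0857, 0.15 after Benjamini-Hochberg adjustment over 7 marker lists). Adgre1 was at 0 in all wild-type libraries and in 3 of 4 mfn2-/- libraries. Ptprc measured 0, 0, 0 and 1.6 normalized read counts in wild-type and 13.3, 15, 12.5 and 0 in mfn2-/- libraries. Of the 6 macrophage markers that passed the filter, 4 had a log2 change above 0 and 0 were called by limma. The largest of these changes was 3.30, that of Mrc1 (limma adjusted p 0.0985). The sum of 6 neutrophil markers was 1.63 to 20.5 and 0 to 50.8 (exact permutation p = 0.286, adjusted p = 0.334). That of 10 endothelial markers was 1098 to 1646 and 1362 to 1928 (exact permutation p = 0.171, adjusted p = 0.239), with 0 of 10 called. The fibroadipogenic, tenocyte and myogenic sums, given above, each had an exact permutation p of 0.0286 and an adjusted p of 0.0667. By limma 11 of 13 fibroadipogenic and 8 of 8 tenocyte markers were called lower, where 6.36% of all tested genes were. Of the 12 myogenic markers 4, Myod1 among them, were called higher and 0 lower, where 3.99% of all tested genes were called higher. The log2 change lay above 0 for 8 of the 12 myogenic markers. It was lowest for Myog (-1.37, limma adjusted p 0.11) and Itga7 (-0.87, adjusted p 0.11).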

How the data were processed

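Libraries were built by the authors from the total RNA of the sorted cells with a stranded low-input kit (SMARTer pico). The submitters' processing notes name Trim Galore, HISAT2, featureCounts, DESeq2 and the build mm9, without versions or settings, and the strand setting of counting is not given in the sources used here. The deposited values are a linear signal per gene, read counts that the authors normalized by 1 size factor per library: 100% of values were whole multiples of 1 step per column (tolerance 0.05), and dividing by that step gave back whole reads. Where 1 read was worth up to 2.27 normalized read counts, weak genes are least precise, and amplified copies cannot be told from molecules.

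Groups came from the sample titles. Genes with a mean of at least 10 were tested two-sided on log2(value + 1) with limma 3.58.1 under R 4.3.3, using its intensity trend and genotype alone, and Benjamini-Hochberg adjusted p-values were held to 0.05. Single values had exact permutation tests. Alternatives were pseudocounts of 0.1 and 10, no filter or a mean of at least 50, 3 other scalings, the replicate number as a block, the presence of Y-linked reads as a term or split, library weights, leaving out the trend or 1 library at a time, and, on recovered reads, DESeq2 1.42.0 and the quasi-likelihood test of edgeR 4.0.16 with TMM. The interaction and the fit without the 2 shallowest libraries were added after seeing the data. Limma with the trend, edgeR and DESeq2 were also run on simulated counts. These held a genotype effect alone, with no difference between replicates or library kinds, so they do not bear on the interaction or on the fit without the trend. Named were all 10 genes, Mfn2, called genes of each list (up to 6, most abundant first; Nfil3 and Bcl3 complete the STAT3 targets) and the 3 most abundant STAT3 targets not called. The other genes with values were picked afterwards. The 10 genes and all lists were chosen with earlier results of these data known. Exon lengths and coordinates are from GENCODE M21, promoters from RefSeq. Some genes of the lists are not reported here.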

Additional observations from a re-analysis of the deposited data

Results flagged for a closer look

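Of 20 groups of 4 libraries (10 genes in 2 genotypes), 2 held a library whose gap to its nearest neighbour took a larger share of the group's range than Dixon's 95% critical value allows. These were Il6ra in wild-type replicate 2, at 152 normalized read counts against 33.7 to 48.2 in the other 3, and Socs3 in wild-type replicate 2, at 3934 against 3153 to 3250. Chance gives about 1 in 20.

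By limma's interaction term, the log2 changes in libraries with and without Y-linked reads differed by 1.92 for Osmr, 1.10 for Stat3 and 1.49 for Socs3. For Osmr and Stat3 the change was positive in both kinds of library, and for Socs3 it had opposite signs. Over both genotypes this term is the same contrast as replicates 1 and 2 against replicates 3 and 4. A genotype change that differs by library kind and a shift between those replicates cannot be told apart.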

How the results depend on the processing

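The changes of Lif, Il6ra, Osmr, Jak1, Jak2, Stat3, Lifr and the targeted gene kept their direction under all 24 alternatives. Il6 turned from -1.44 to 0.09 with library weights, and to 0.14 in the libraries with Y-linked reads. With library weights Il6ra (1.16), Il6st (0.39), Jak2 (1.14) and Socs3 (0.78) passed as well, so that 7 of the 10 genes, 8 pathway and 16 STAT3 target genes were called higher, 4 and 1 lower, and 1398 genes of the table higher and 1639 lower. Without the intensity trend Osmr (2.02) and Jak1 (0.72) no longer passed, which left 1 of the 10 genes, 1 pathway and 4 target genes higher and 1 pathway gene lower. That setting called 113 genes of the table higher and 520 lower, against 469 and 748. The cause was not tested.

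Between libraries with and without Y-linked reads the log2 change was 0.45 and -0.06 for Il6st, -0.15 and -0.84 for Lifr, 2.98 and 1.06 for Osmr, 1.04 and 0.40 for Jak1, 1.33 and 0.34 for Jak2, 2.11 and 1.00 for Stat3 and 1.05 and -0.45 for Socs3.

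With single libraries left out, Jak1 ran from 0.60 to 0.84 and Jak2 from 0.66 to 1.12. Genes called higher ran from 2 to 4 among the 10 genes, from 2 to 5 among pathway genes and from 6 to 9 among STAT3 targets, and genes called lower from 0 to 1 in both lists. Without wild-type replicate 1 and mfn2-/- replicate 4 the table gave 639 higher and 963 lower. With 1 library left out the counts ran from 235 (without wild-type replicate 3) to 489 higher and from 436 (also without wild-type replicate 3) to 842 lower.

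The 2 lower pathway genes became 1 with pseudocounts of 0.1 and 10, a mean of at least 50, edgeR, or without wild-type replicate 1 and mfn2-/- replicate 4, and 0 without a filter or with quantile normalization. The STAT3 targets called lower became 1 with Y-linked reads as a term, with DESeq2, or without these 2 libraries.

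Over all tested genes same-numbered libraries did not deviate together (correlations of -0.111 to 0.0383), so no pairing by number was detected that way. Whether replicates 1 and 2, or 3 and 4, were processed together was not tested. With the replicate block 3 of the 10 genes were still called higher, and 0 pathway and 2 target genes lower.

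At the depth of wild-type replicate 1 a count of 3 reads corresponds to 6.82 normalized read counts, and lower values are not resolved there.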
